A study of Mus musculus with 16 samples.

Results

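Apod, Vash1, Ndnf, Serpinb6b, Itih5, Ctsh, Pomc and Podn are 8 of the 37003 genes counted in sorted mouse brain endothelial cells (bECs), and each encodes a protein that is secreted, extracellular or close kin to secreted proteins. They were picked by name because their levels differed between bECs with and without YAP and TAZ, so the differences between genotypes given here chose the genes and are a description, with no test. All 8 passed the filter on low counts, which left 31085 genes. The comparison of ischemic stroke with sham surgery, averaged over genotypes, was not the stated ground of the choice and was tested. The genes were picked with earlier results of these data known, so this test is not fully independent of the choice.

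The bECs came from brains of adult mice of both sexes and were sorted as DAPI-, CD45- and CD31+ cells 72 h after surgery. Mice of both genotypes carried floxed alleles of Yap and Taz (Yap fl/fl, Taz fl/fl; Taz is the gene Wwtr1) and received tamoxifen before surgery. YT-iKO mice also carried the transgene Pdgfb-iCreER-eGFP, in which the Pdgfb promoter drives a tamoxifen-dependent Cre recombinase, and CTRL littermates lacked it. MCAo was a 30 min occlusion of the middle cerebral artery followed by reperfusion, and sham mice had surgery with no occlusion. There were 4 libraries for each genotype and surgery: CTRL sham, YT-iKO sham, CTRL MCAo and YT-iKO MCAo. Each library was a pool of several mice, so the error and p-values describe the spread between pools.

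YAP and TAZ are transcriptional co-activators that enter the nucleus when the Hippo kinases are inactive and bind TEAD factors on DNA. In vessels they are known for their part in sprouting, in barrier maturation and in the response to flow and stretch. Secreted and extracellular proteins let bECs act on their basement membrane, on pericytes and on the parenchyma. Apod, apolipoprotein D, is a lipocalin that carries small lipids, and Vash1, vasohibin 1, is an inhibitor of angiogenesis and a tubulin carboxypeptidase. Ndnf is a secreted protein with fibronectin type III domains first described in neurons. Itih5 belongs to the inter-alpha-trypsin inhibitor heavy chains, which bind hyaluronan, and Podn, podocan, is a small leucine-rich proteoglycan. Serpinb6b is a clade B serpin, a group of protease inhibitors that lack a classical signal peptide. Ctsh, cathepsin H, is a lysosomal cysteine protease that can be released, and Pomc, proopiomelanocortin, is the precursor of ACTH, melanocortins and beta-endorphin.

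TEAD factors bind DNA around the letters GGAAT, so the windows around the start sites of these genes were searched for them. RefSeq windows of 300 bases on GRCm38.p6, from 250 bases before to 50 bases after a start site, were matched for 6 of the 8 genes, with 7 windows because Podn had a pair. Ndnf and Ctsh had no entry. GGAAT or its reverse complement ATTCC was in 3 of the 7 windows and in 38.7% of all 32851 windows. The longer form GGAATG or CATTCC was in 0 of the 7 and in 14.7% of all windows. Shown 5′ to 3′ on the strand of the gene are the 3 windows with the letters and that of Apod, the gene with the largest difference between genotypes after sham, whose window held none. Capitals mark GGAAT and ATTCC. The Apod window is chr16:31314759-31315058 (minus strand), that of Vash1 chr12:86678450-86678749 (plus strand), that of Serpinb6b chr13:32965011-32965310 (plus strand) and that of Podn chr4:108030937-108031236 (minus strand).
Apod: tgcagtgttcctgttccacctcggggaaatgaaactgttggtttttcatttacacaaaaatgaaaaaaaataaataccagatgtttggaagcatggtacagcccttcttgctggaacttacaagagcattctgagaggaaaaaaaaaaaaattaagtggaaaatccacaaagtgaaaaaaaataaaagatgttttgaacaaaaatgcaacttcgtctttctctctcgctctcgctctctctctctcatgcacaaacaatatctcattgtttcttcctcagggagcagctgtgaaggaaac
Vash1: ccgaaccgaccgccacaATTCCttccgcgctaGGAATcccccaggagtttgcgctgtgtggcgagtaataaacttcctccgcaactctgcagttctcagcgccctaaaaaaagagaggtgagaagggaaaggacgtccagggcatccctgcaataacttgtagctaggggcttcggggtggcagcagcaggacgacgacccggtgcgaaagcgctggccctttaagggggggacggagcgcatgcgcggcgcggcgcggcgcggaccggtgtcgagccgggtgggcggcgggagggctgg
Serpinb6b: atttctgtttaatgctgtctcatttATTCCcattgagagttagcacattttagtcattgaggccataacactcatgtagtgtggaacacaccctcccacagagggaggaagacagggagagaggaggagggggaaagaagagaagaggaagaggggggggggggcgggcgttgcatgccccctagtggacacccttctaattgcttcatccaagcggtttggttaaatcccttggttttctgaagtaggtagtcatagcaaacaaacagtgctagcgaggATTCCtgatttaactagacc
Podn: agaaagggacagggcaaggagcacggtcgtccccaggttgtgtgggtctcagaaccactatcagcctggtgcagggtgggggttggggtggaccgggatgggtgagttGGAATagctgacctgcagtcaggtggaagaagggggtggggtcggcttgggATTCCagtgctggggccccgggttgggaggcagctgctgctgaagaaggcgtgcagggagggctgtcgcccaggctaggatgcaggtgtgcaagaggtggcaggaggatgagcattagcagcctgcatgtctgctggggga

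Counted from 1 at the 5′ end, the letters began at positions 18 and 33 of the Vash1 window, 26 and 281 of the Serpinb6b window and 109 and 160 of the Podn window. A match of 5 letters is a description of the window and not a bound site. The other window of Podn and those of Itih5 and Pomc held none.

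Library totals were 11418262 to 23074547 counts, with a median of 16441012. Levels are given as CPM, the count of a gene divided by the total of its library, on the usual scale, with totals scaled by edgeR's TMM factors. After sham, Yap1 averaged 112 CPM ± 0.511 in CTRL and 49.3 ± 9.70 in YT-iKO, and after MCAo 106 ± 26.8 and 47.2 ± 11.6 (SD, n = 4 each). Wwtr1 averaged 265 ± 9.66, 72.1 ± 20.9, 329 ± 96.8 and 89.1 ± 32.9 CPM in the same order, and no YT-iKO library reached a CTRL library for either gene. The counts cover all exons, so they do not measure recombination itself. The summed level of 10 endothelial markers was 18650 to 20235 CPM in CTRL and 11129 to 19128 in YT-iKO after sham, and 13569 to 23261 and 10306 to 20701 after MCAo. All 10 were lower in YT-iKO after sham, with a median log2 fold change of -0.32 and none called (Flt1, the highest at a mean of 5999 CPM, was at -0.26), and this stands beside every genotype difference below. Pericyte markers, of which Rgs5 was the highest at a mean of 448 CPM, were lower in 8 of 9 after sham (median -0.33) and in 9 of 9 after MCAo (median -0.19), while neuronal and oligodendrocyte markers were each higher in 7 of 8 after sham (medians 0.58 and 0.45), with none called. Reads on 1466 receptor genes of smell and taste, which bECs are not known to use, were taken to measure an even background. That it is even over genes was assumed and not checked. The density of these reads was 0.0413 to 0.421 CPM per kilobase. It was highest in YT-iKO sham replicate 3, YT-iKO MCAo replicates 2 and 3 and CTRL MCAo replicates 2 and 3, at 0.289 to 0.421. The part of this background and of the cell types marked in the differences between genotypes was not tested. In bulk RNA, fewer cells of a kind and less RNA per cell cannot be told apart.

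**Figure D1:**
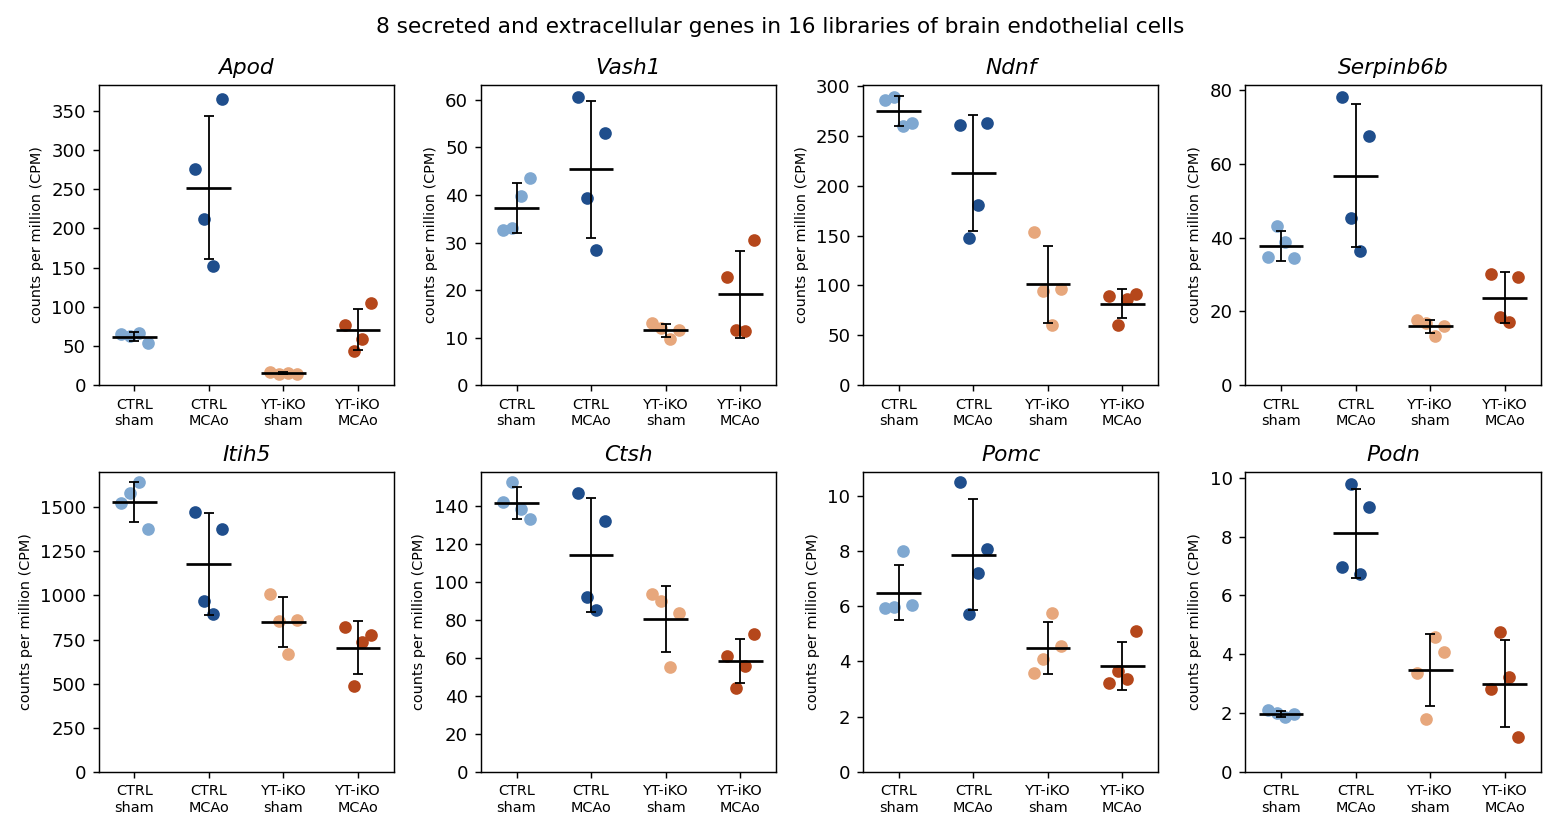
Level of each of the 8 genes in CPM (vertical axis, from 0) in the 16 libraries, by group; points are libraries, long bars are means and error bars are SD (n = 4). Apod was higher after MCAo in both genotypes and lower in YT-iKO in both, while Podn was high in CTRL MCAo, at 6.71 to 9.78 CPM, and lower in each other group.

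Apod had the largest log2 fold change between genotypes by edgeR among the 8 genes after sham and after MCAo. In CTRL sham the 4 libraries held 65.7, 62.8, 65.8 and 53.3 CPM, and in CTRL MCAo they held 276, 213, 152 and 366 CPM. In YT-iKO sham they held 16.3, 13.9, 15.4 and 14.0 CPM, and in YT-iKO MCAo 76.3, 43.3, 58.7 and 105 CPM. Every YT-iKO library was below every CTRL library of the same surgery, and every MCAo library was above every sham library of its genotype. The level in YT-iKO after MCAo, at a mean of 70.9 CPM ± 26.6, overlapped that of CTRL after sham, at 61.9 ± 5.88 (SD, n = 4 each). The log2 fold change of YT-iKO against CTRL was -2.05 (SE 0.27) after sham and -1.83 (SE 0.27) after MCAo, or 4.15-fold and 3.55-fold lower. These rest on 213 to 5807 reads per library. With the even background taken off, the MCAo means of Apod were 251 CPM in CTRL and 70.2 in YT-iKO. Those of Podn were 7.11 and 1.95 CPM, a fold at least as large, so the rank of Apod after MCAo holds only without that step.

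Apod rose after MCAo. Averaged over genotypes its log2 fold change was 2.14 (SE 0.19; adjusted p = 1.65e-06 by edgeR's quasi-likelihood test), a 4.40-fold rise. All 8 MCAo libraries were above the median of their sham group, and an exact permutation test of surgery labels within each genotype gave p = 0.000408, the smallest it can give over 4900 assignments. Within genotypes, where the libraries are those that chose the gene, the log2 fold change was 2.02 (SE 0.27) in CTRL and 2.25 (SE 0.28) in YT-iKO, given with no test. The difference between these responses was 0.23 (SE 0.37). Apod is also made by perivascular fibroblasts, so the 9 fibroblast markers were summed: they held 23 to 30.8 CPM in CTRL and 24.7 to 50.8 in YT-iKO after sham, and 36.1 to 46.1 and 35.5 to 50.7 after MCAo. Averaged over genotypes 7 of these 9 markers had log2 fold changes above 0 after MCAo, with a median of 0.70. Of the 9, 2 were called higher, Col1a2 by 0.77 and Dcn by 2.13 on the log2 scale (edgeR adjusted p = 0.0252 and 0.00453). Lum had no read in 1 library. The highest, Col1a2, averaged 10.7 CPM in CTRL MCAo, where Apod averaged 252 CPM. Summed fibroblast markers averaged 26.4 CPM ± 3.35 in CTRL sham and 32.5 ± 12.4 in YT-iKO sham (SD). Of 9 pericyte markers 8 had log2 fold changes above 0 after MCAo, with a median of 0.49, but none was called by edgeR. Their sums were 789 to 999.7 CPM in CTRL and 569.8 to 932 in YT-iKO after sham, and 602 to 1609 and 526 to 1269 after MCAo. What pericytes and fibroblasts in the sort contribute to Apod was not tested.

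Vash1 was 3.22-fold lower in YT-iKO after sham. CTRL sham libraries held 32.7, 33.0, 39.9 and 43.5 CPM and YT-iKO sham libraries 13, 11.9, 9.72 and 11.6 CPM, with no overlap. After MCAo the CTRL libraries held 60.6, 39.5, 28.4 and 53.1 CPM and the YT-iKO libraries 22.7, 11.7, 11.5 and 30.5 CPM. Here the groups overlapped, since YT-iKO replicate 4 was above CTRL replicate 3. The log2 fold changes were -1.69 (SE 0.28) and -1.25 (SE 0.28). In both genotypes the replicates 2 and 3 taken after MCAo were the lowest of their group for Vash1, and these 4 libraries had a receptor density of 0.289 to 0.412 CPM per kilobase against 0.0413 to 0.192 in the other 4 taken after MCAo. The even background could account for 0.352% to 11.3% of the Vash1 reads. MCAo against sham gave 0.50 (SE 0.20; edgeR adjusted p = 0.537; exact permutation p = 0.0804), with 5 of 8 MCAo libraries above their sham median, so no change was called.

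Serpinb6b and Vash1 were both chosen on the genotype difference, which adds to their correlation of 0.963 over the 16 libraries. Serpinb6b, the clade B serpin, followed the pattern of Vash1 closely. In CTRL sham it stood at 34.9, 43.2, 38.8 and 34.4 CPM, against 17.6, 16.7, 13.3 and 15.9 CPM in YT-iKO sham. CTRL MCAo libraries held 78.2, 45.4, 36.3 and 67.5 CPM, and YT-iKO MCAo libraries 30.0, 18.5, 17.0 and 29.4 CPM. The genotypes did not overlap after either surgery, and replicates 2 and 3 were again the lowest after MCAo. The log2 fold changes between genotypes were -1.25 (SE 0.24) and -1.26 (SE 0.24). MCAo against sham gave 0.58 (SE 0.17), a 1.5-fold higher mean with 7 of 8 libraries above their sham median, but edgeR's adjusted p of 0.146 missed the threshold of 0.1. With the replicate number as a block it was 0.0987, just under the threshold, and over all alternatives it ran from 0.000148 to 0.450. The exact permutation test of this gene alone, 1 of 8 such tests, gave p = 0.00816. Of the 50-base stretches in its transcripts 2.92% are also in another gene, most of them in Serpinb6c, so a small part of its reads could belong to that paralog.

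Ndnf was lower in YT-iKO after both surgeries by a similar size. CTRL sham libraries held 287, 289, 260 and 264 CPM, and YT-iKO sham libraries 154, 94.1, 60.0 and 96.3 CPM. After MCAo, Ndnf was at 262, 148, 181 and 263 CPM in CTRL and at 89.9, 59.8, 86.2 and 91.2 CPM in YT-iKO. All CTRL libraries were above all YT-iKO libraries of the same surgery, with the nearest at 148 and 91.2 CPM after MCAo. The log2 fold changes were -1.44 (SE 0.26) after sham and -1.38 (SE 0.26) after MCAo. No MCAo library was above the median of its sham group, yet MCAo against sham was -0.34 (SE 0.18) with an edgeR adjusted p of 1.00 and an exact permutation p of 0.0682.

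Itih5 had the highest level of the 8 genes. It stood at 1525, 1579, 1643 and 1378 CPM in CTRL sham and at 1010, 857, 668 and 860 CPM in YT-iKO sham. CTRL MCAo libraries held 1476, 971, 897 and 1379 CPM and YT-iKO MCAo libraries 820, 486, 735 and 774 CPM. The genotypes did not overlap, although after MCAo the gap was narrow, with the lowest CTRL library at 897 and the highest YT-iKO library at 820 CPM. Log2 fold changes were -0.85 (SE 0.25) after sham and -0.75 (SE 0.25) after MCAo, beside the median of -0.32 for the endothelial markers after sham and -0.12 after MCAo. Among those markers Slco1a4 was at -0.86 (SE 0.29) and -0.83 (SE 0.29), close to Itih5. For MCAo against sham the value was -0.32 (SE 0.18; edgeR adjusted p = 1.00; exact permutation p = 0.0265 for this gene alone), with 0 of 8 MCAo libraries above their sham median.

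Ctsh moved with Itih5 over the libraries, at a correlation of 0.974, to which the choice of both on the genotype difference adds. Its CTRL sham libraries held 142, 152, 138 and 133 CPM and its YT-iKO sham libraries 93.6, 89.6, 55.3 and 83.5 CPM. After MCAo the values were 147, 92.0, 85.0 and 132 CPM in CTRL and 60.7, 44.1, 55.9 and 72.5 CPM in YT-iKO. The genotypes were apart after both surgeries, with log2 fold changes of -0.81 (SE 0.22) and -0.97 (SE 0.23). MCAo against sham was -0.39 (SE 0.16; edgeR adjusted p = 0.597; exact permutation p = 0.0180 for this gene alone), and 1 of 8 MCAo libraries was above its sham median.

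Pomc was low, at 52 to 152 reads per library. CTRL sham libraries held 5.94, 5.98, 8.01 and 6.04 CPM and YT-iKO sham libraries 3.57, 4.10, 5.77 and 4.55 CPM. In CTRL MCAo the level was 10.5, 5.72, 7.19 and 8.06 CPM, and in YT-iKO MCAo it was 3.21, 3.63, 3.37 and 5.11 CPM. YT-iKO was lower without overlap in both states, by a narrow gap of 5.94 against 5.77 CPM after sham. The log2 fold changes were -0.53 (SE 0.26) and -1.04 (SE 0.26), and MCAo against sham was 0.02 (SE 0.18; edgeR adjusted p = 1.00). The even background could account for 1.07% to 15% of the Pomc reads. Markers of pituitary and hypothalamus, where Pomc is best known, summed to 3.51 to 13 CPM over 7 genes in all libraries, and Prl and Cga each had no read in 1 library. The highest of them, Agrp, averaged 2.07 to 2.73 CPM by group and was at 0.451 CPM or more in every library. None of the 7 was called in any comparison by edgeR.

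Podn was the only one of the 8 genes whose genotype difference pointed up after sham and down after MCAo. The 4 CTRL sham libraries held 2.11, 1.99, 1.87 and 1.95 CPM, and the CTRL MCAo libraries held 6.97, 9.78, 6.71 and 9.0 CPM. YT-iKO sham libraries held 3.37, 1.80, 4.60 and 4.08 CPM, and YT-iKO MCAo libraries 2.81, 4.76, 3.24 and 1.18 CPM. Podn was thus high in all CTRL MCAo libraries, and the highest library of any other group stood at 4.76 CPM. YT-iKO against CTRL was 0.80 (SE 0.36) after sham, where YT-iKO replicate 2 lay below all CTRL libraries, and -1.44 (SE 0.35) after MCAo, where the groups did not overlap. The difference between genotypes in the MCAo response was -2.24 (SE 0.50), and it is a difference of the values that chose the gene.

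In CTRL, Podn was 4.09-fold higher after MCAo than after sham (log2 fold change 2.03, SE 0.36), and all 4 MCAo libraries were above all sham libraries. In YT-iKO the log2 fold change was -0.21 (SE 0.35). The high CTRL MCAo libraries are also those behind the genotype difference that chose Podn, so these values are a description, with no test. The mean of these values, MCAo against sham averaged over genotypes, was 0.91 (SE 0.25, edgeR adjusted p = 0.112, exact permutation p = 0.0420). Of the 8 MCAo libraries 5 were above their sham median, 4 in CTRL and 1 in YT-iKO. The average joins a rise in CTRL with no rise in YT-iKO, so it is not a response of both genotypes. Podn rested on 19 to 143 reads per library, and the even background could account for 40.0% to 46.8% of them in CTRL and 21.4% to 40.6% in YT-iKO after sham, and for 8.62% to 20.3% and 14.9% to 47.4% after MCAo. With that share taken off, the sham means were 1.14 CPM ± 0.0720 in CTRL and 2.40 ± 0.906 in YT-iKO, and the MCAo means 7.11 ± 1.51 and 1.95 ± 0.831 (SD, n = 4 each). Podocan is known from smooth muscle and fibroblasts, so their markers stand beside it. The sum of the 9 fibroblast markers had a mean of 41.8 CPM in CTRL MCAo and 43.6 in YT-iKO MCAo. The means of Podn there were 8.12 and 3.00 CPM. The 7 smooth muscle markers summed to 91.5 to 166 CPM in CTRL MCAo and 90.5 to 187 in YT-iKO MCAo, and Mylk, the highest of them, averaged 62.2 to 74.2 CPM by group. The source of the Podn reads among these cells was not tested.

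**Figure D2:**
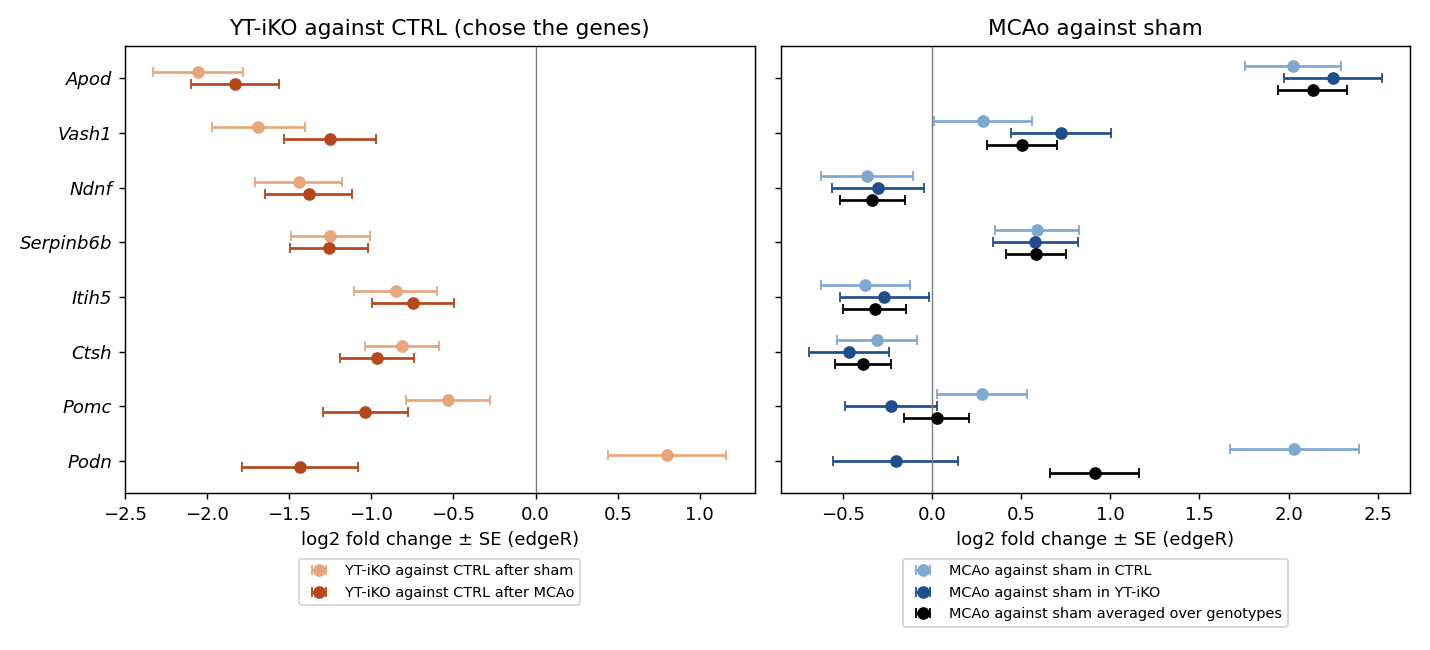
Log2 fold changes from edgeR (horizontal axis) for the 8 genes, with SE derived from the F statistic of its test. YT-iKO against CTRL is on the left and MCAo against sham on the right, where black points average both genotypes. The left panel holds the values that chose the genes, all below 0 except Podn after sham at 0.80, and on the right Apod lies at 2.02 and 2.25 in CTRL and YT-iKO, and Podn at 2.03 and -0.21.

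Counted over the 8 genes, edgeR's adjusted p was under 0.1 for 4 genes lower in YT-iKO after sham (Apod, Vash1, Ndnf and Serpinb6b), where 0.0965% of all genes were called, and for 3 lower after MCAo (Apod, Ndnf and Serpinb6b), where 0.0708% were. Groups that did not overlap, lower in YT-iKO, were found for 7 of 8 after sham and 7 of 8 after MCAo, beside 2.22% and 0.415% of all genes. These counts restate how the genes were picked. They also moved with the setting: the count after MCAo was 8 by DESeq2, and with 1 library left out it ranged from 1 to 6. It was 1 when replicate 4 of YT-iKO sham, replicate 2 of CTRL sham, replicate 3 of YT-iKO MCAo or replicate 4 of CTRL MCAo was omitted, and 6 when replicate 4 of YT-iKO MCAo was. The count after sham dropped to 1 on omitting replicate 4 of YT-iKO sham, and to 2 on omitting replicate 2 of CTRL sham. The median log2 fold change of the 8 was -1.05 after sham and -1.25 after MCAo, where all genes tested had medians of 0.11 and 0.03.

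For MCAo against sham averaged over genotypes, 1 of 8 genes was called (Apod), and 1.23% of all genes were. Within genotypes the libraries are those whose differences chose the genes, so nothing is read from the counts there: in CTRL 2 of 8 passed (Apod and Podn) beside 0.216% of all genes, and in YT-iKO 1 of 8 (Apod) beside 0.318%. MCAo levels above all sham levels were found for 2 of 8 genes in CTRL and 1 of 8 in YT-iKO, beside 2.24% and 0.785% of all genes, and restate the same libraries. The median of the 8 was 0.26 averaged over genotypes, 0.28 in CTRL and -0.22 in YT-iKO, and the medians of all genes were 0.03, 0.07 and -0.02. For the difference between genotypes in the MCAo response, edgeR called 0 of 8 genes and 0% of all genes, 116 genes had an unadjusted p under 0.05, and DESeq2 also called 0. In the average over genotypes, 5 of the 8 lay above 0 and 3 below 0.

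Per length, the 8 genes spanned a wide range. Mean CPM per kilobase of exon over all libraries was 135 for Itih5, 38.7 for Apod, 21.9 for Ctsh, 16.6 for Ndnf, 14.8 for Serpinb6b, 10.9 for Vash1, 4.30 for Pomc and 0.969 for Podn. Itih5 lay above 99.6% of the 30968 tested genes that had an exon length, Apod above 97.7%, Pomc above 73.9% and Podn above 49.1%. The order changed between groups mostly through Apod. In CTRL sham it ran Itih5, Ctsh, Ndnf, Apod, Serpinb6b, Vash1, Pomc and Podn, and of these neighbours only Serpinb6b and Vash1 overlapped. In CTRL MCAo Apod was at place 2 at 97.7 CPM per kilobase ± 35.4 (SD, n = 4) and its range overlapped that of Itih5 at 149 ± 36.6. Ctsh, Serpinb6b, Ndnf and Vash1 followed in that order, and each of these neighbours overlapped. In YT-iKO sham Apod was at place 5 at 5.78 ± 0.452, below Ctsh, Ndnf and Serpinb6b, each of which overlapped the next in the order, as Vash1 did with Pomc. In YT-iKO MCAo Apod was at place 2 again at 27.5 ± 10.3, without overlap with Itih5 or Ctsh, and Ctsh, Serpinb6b, Ndnf and Vash1 overlapped in sequence. Pomc and Podn held the last places in every group, in that order.

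**Figure D3:**
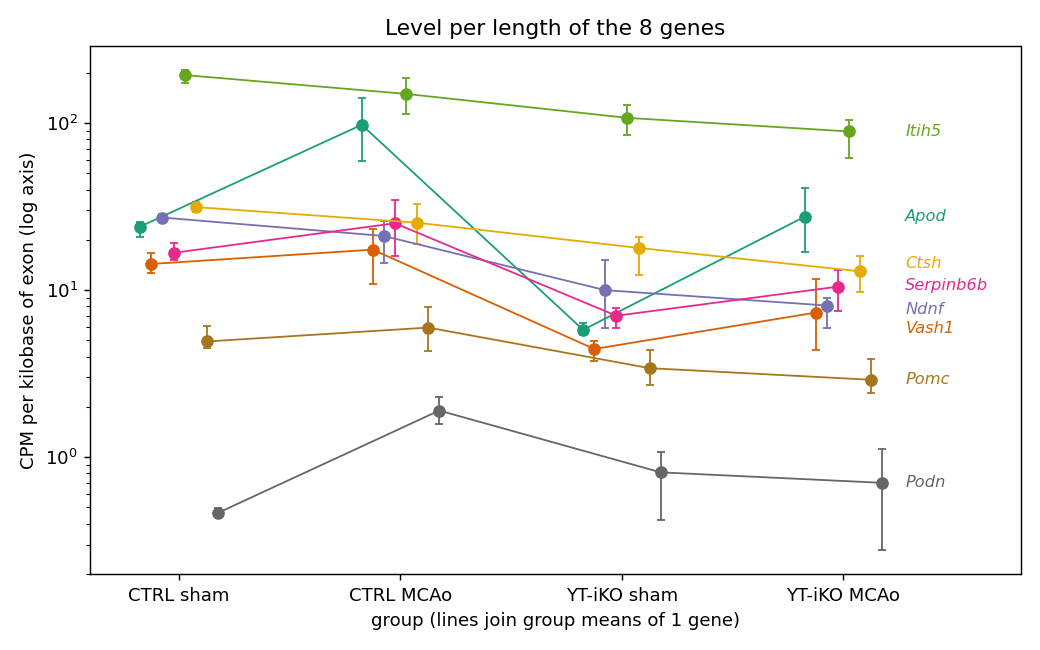
Level per length of the 8 genes in CPM per kilobase of exon (vertical axis, log scale) in the 4 groups; points are means of 4 libraries, error bars run from the lowest to the highest library and lines join the means of 1 gene. Itih5 was highest and Podn lowest in each group, and the place of Apod was 4 in CTRL sham and 5 in YT-iKO sham and 2 after MCAo in both genotypes.

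The genes nearest to each member over the 16 libraries were sought among the 9132 genes whose mean reached 10 CPM, by Pearson correlation of log2(CPM + 1). The 16 libraries share the genotype and surgery groups and differ in depth and background, so these are descriptions with no test. For Apod they were Cdk6 (0.921), Bgn (0.915) and Cpe (0.913). Vash1 was nearest to Cp, ceruloplasmin (0.983), Serpinb6b (0.963) and Angpt2, angiopoietin 2 (0.958), and Serpinb6b to Cp (0.972), Clec14a (0.969) and Edn1, endothelin 1 (0.965). Ndnf was nearest to Slc7a1 (0.970), Slc16a4 (0.966) and Rflnb (0.966). Itih5 and Ctsh had each other first (0.974) and shared Slco1a4 (0.967 and 0.966), an anion transporter of the blood-brain barrier, with Prom1 (0.964) next for Itih5 and Slc40a1, the iron exporter ferroportin (0.968), for Ctsh. The values were smaller for the low genes: Vil1 (0.911), Fam57b (0.876) and Ddah1 (0.861) for Pomc, and Lama1 (0.836), C4b (0.741) and Adgrg6 (0.727) for Podn. Among the 8 genes the correlations ran from -0.107, for Itih5 with Podn, to 0.974, and those of Podn with the other 7 were at most 0.474.

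Relatives of the 8 genes were listed by family or pathway, 113 genes in all, of which 108 were in the table and tested. Ndnf had no list. None of the 108 was called between genotypes by edgeR, and 9 after sham and 6 after MCAo had an unadjusted p under 0.05, or 8.33% and 5.56%, where 2.16% and 1.49% of all genes did. DESeq2 called 2 and 1, and 81 and 92 over all genes. Their median log2 fold change was 0.15 after sham and -0.02 after MCAo, against -1.05 and -1.25 for the 8 members. The members were chosen on these contrasts, and the relatives were listed by family or pathway, but with earlier results of these data known. After MCAo, averaged over genotypes, edgeR called 9 of 108 relatives higher and 0 lower, or 8.33% beside 1.23% of all genes, with a median of 0.12. The count was 5 without CTRL sham replicate 2, and likewise when YT-iKO MCAo replicate 1 or YT-iKO sham replicate 4 was omitted. Lcn2, Itih4, Bgn, Dcn and Cpe were called with any 1 of the 16 libraries left out, whereas Cemip2 was called in 11 of these 16 fits, Ctsb and Vcan in 8 each and Itih3 in 4. With all 16 libraries, DESeq2 also called Serpinb1a, Serpinb9 and Penk higher (adjusted p = 0.0105, 0.0181 and 0.0681). It called Hyal1 lower (-0.44, adjusted p = 0.0996), and over all genes it called 814 in this comparison.

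Apod's list held 18 lipocalins and apolipoproteins, and 1 rose after MCAo: Lcn2, lipocalin 2, an acute-phase protein that binds bacterial siderophores (log2 fold change 2.18, SE 0.31, edgeR adjusted p = 0.000418). Lcn2 is also a neutrophil marker, and the other 6 markers of monocytes and neutrophils averaged at most 3.15 CPM by group, where Lcn2 averaged 29.2 CPM in CTRL MCAo and 55.6 in YT-iKO MCAo. The sort kept CD45- cells, which leaves out leukocytes, and the part of other cells in the rise of Lcn2 was not tested. Unlike Apod, Lcn2 was at -0.25 (SE 0.43) between genotypes after sham and 0.93 (SE 0.42) after MCAo. The abundant lipid carriers Apoe, at a mean of 315 CPM, and Clu, at 33.1 CPM, were at 0.13 and 0.10 after MCAo and were not called. Between genotypes after sham Apoe was at -0.83 (SE 0.27) and Clu at -0.19 (SE 0.26), both not called. The median of the list was 0.05 after MCAo. Between genotypes after sham it was 0.37, with 15 of 18 genes above 0, each of them at a mean below that of Lcn2, Clu and Apoe, the 3 below 0.

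Vash1 had 3 tested relatives, and 0 were called. Svbp, the small partner that vasohibins need for activity, averaged 5.29 CPM and was at 0.46 after MCAo and 0.29 between genotypes after sham. Ttl, the ligase that puts tyrosine back on tubulin, averaged 32.8 CPM and was at -0.03 and -0.22. The paralog Vash2 averaged 3.18 CPM.

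Of the 16 genes of inter-alpha-trypsin inhibitors and hyaluronan listed with Itih5, 4 rose after MCAo. Itih4 rose by 2.58 on the log2 scale (SE 0.41, edgeR adjusted p = 0.00114) and Itih3 by 1.00 (SE 0.27, adjusted p = 0.0973). Cemip2, a cell-surface hyaluronidase, rose by 0.91 (SE 0.22, edgeR adjusted p = 0.0481) and Vcan, versican, which binds hyaluronan, by 0.63 (SE 0.16, adjusted p = 0.0649). Itih5 itself was at -0.32. Hyal2, a further hyaluronidase, averaged 46.9 CPM and was at 0.24, not called. The list had a median of 0.20 after MCAo and of 0.35 between genotypes after sham.

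The 16 small leucine-rich proteoglycans listed with Podn gave 2 that rose after MCAo, Bgn, biglycan (1.32, SE 0.23, edgeR adjusted p = 0.00293), and Dcn, decorin (2.13, SE 0.38, edgeR adjusted p = 0.00453). Within genotypes, where Podn was at 2.03 in CTRL and -0.21 in YT-iKO, Bgn was at 1.28 and 1.36 and Dcn at 2.17 and 2.09. Neither gene was called within a genotype by edgeR (adjusted p of Dcn 0.168 in CTRL), whereas DESeq2 called both in CTRL (adjusted p = 0.00613 for Bgn and 0.00450 for Dcn) and in YT-iKO (0.00381 and 0.00764). The difference between their responses was 0.07 (SE 0.45) for Bgn and -0.08 (SE 0.75) for Dcn. Bgn was at -1.11 (SE 0.32) between genotypes after sham and -1.04 (SE 0.32) after MCAo, not called by edgeR. DESeq2 called it after sham (adjusted p = 0.0885) but not after MCAo (adjusted p = 0.106). Prelp averaged 4.65 CPM and was at 0.39 after MCAo.

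Among 19 genes that process Pomc or receive its products, Cpe, carboxypeptidase E, which trims prohormones, rose after MCAo by 1.99 (SE 0.24, edgeR adjusted p = 3.58e-05). The rise was called in both genotypes, at 1.67 in CTRL and 2.32 in YT-iKO (edgeR adjusted p = 0.0393 and 0.00184). Pam, which amidates peptides, averaged 189 CPM and was at 0.15, not called, and Pcsk1, the convertase that first cuts Pomc, averaged 1.03 to 1.59 CPM by group. Between genotypes DESeq2 called Cpe lower in YT-iKO after sham (-1.14, adjusted p = 0.0474) and Penk lower after MCAo (-1.83, adjusted p = 0.00703), while edgeR called neither. Of 18 cathepsins and cystatins listed with Ctsh, Ctsb rose by 0.92 (SE 0.23, edgeR adjusted p = 0.0623). The most abundant, Ctsa at 275 CPM, was at -0.19, and neither it nor any other of the list was called by edgeR. Of 18 clade B serpins 0 were called by edgeR, with Serpinb6a, at a mean of 80.4 CPM, at 0.23 and Serpinb9, at 60.7 CPM, at 0.56 after MCAo. DESeq2 called Serpinb9 (0.55, adjusted p = 0.0181) and Serpinb1a (0.89, adjusted p = 0.0105) there. Between genotypes after sham Serpinb6a and Serpinb9 were at -0.32 and -0.75 beside -1.25 for Serpinb6b.

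**Figure D4:**
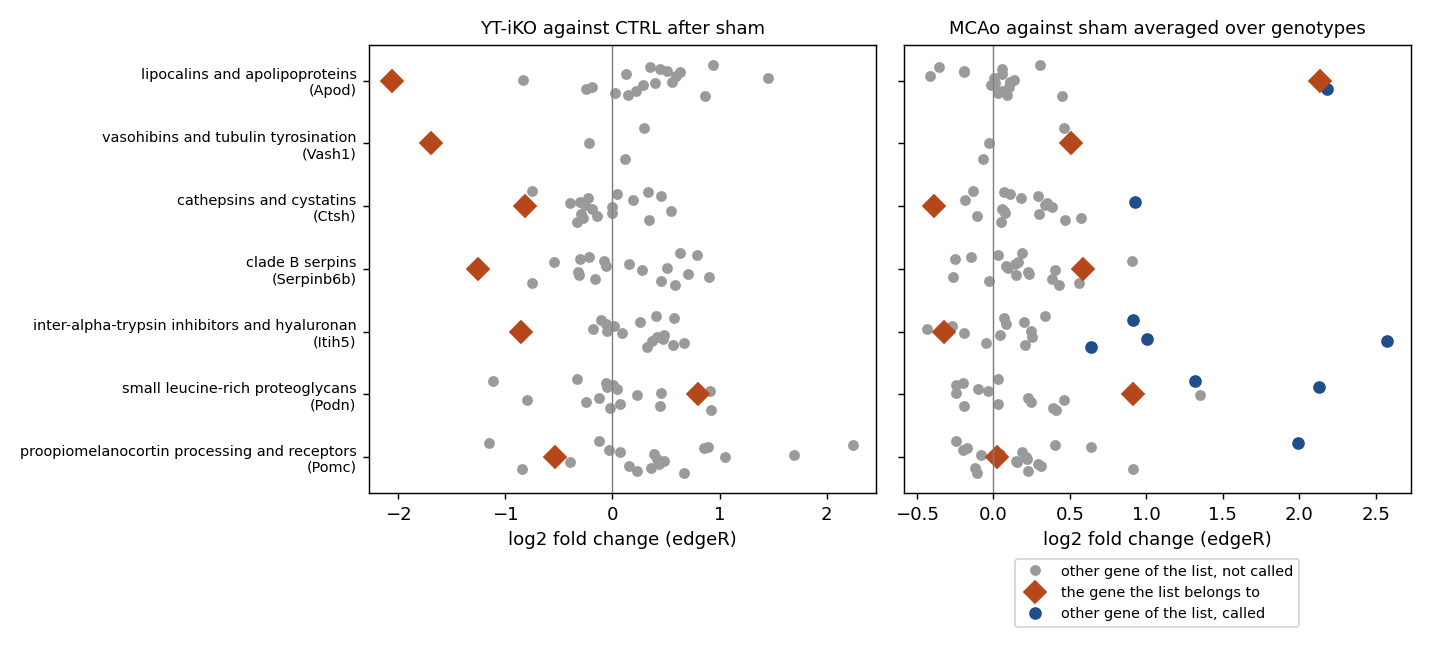
Log2 fold changes from edgeR (horizontal axis) of the 108 relatives, 1 point a gene, by list (vertical axis), for YT-iKO against CTRL after sham and for MCAo against sham averaged over genotypes; diamonds are the 8 genes other than Ndnf, which has no list, and dark blue points passed an adjusted p of 0.1. Relatives lie on both sides of 0 between genotypes with none called, and 9 are called after MCAo, all above 0.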

How the data were processed

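RNA of sorted bECs was sequenced in 16 libraries, each a pool of mice, with libraries made by a SMART-Seq Ultra Low Input kit. The authors mapped reads with STAR 2.7.8a to GRCm38 and deposited raw counts per gene without normalization. The counting program and its use of strand are not given in the sources used here. Table columns named WT and KO were read as CTRL and YT-iKO. Totals were 11418262 to 23074547 counts, so genes with few reads, such as Podn, are the least precise.

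The 8 genes and all gene lists were chosen with earlier results of these data known. edgeR 4.0.16 in R 4.3.3 fitted all 4 groups in 1 quasi-likelihood model, with TMM factors and filterByExpr (minimum count 10, minimum total 15), and the Benjamini-Hochberg adjustment covered 31085 genes, with calls at an adjusted p under 0.1. The SE of an edgeR log2 fold change was derived as its absolute value divided by the square root of the F statistic of its test. MCAo against sham averaged over genotypes shares no contrast with the genotype comparisons in this balanced design. Single genes were also tested by exact permutation (two-sided) of log2(CPM + 1) values. Exon lengths and positions are from GENCODE M21 on GRCm38, in which no exon of the 8 genes overlapped another gene, and 50-base stretches shared with other transcripts were counted. The even background was the reads per exon kilobase on 1466 autosomal olfactory, vomeronasal and taste receptor genes, added after the data were seen.

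Named genes were the 8, the 3 nearest to each by correlation, the called and the 2 most abundant genes of each family list, the highest gene of each marker list reported, and Yap1 and Wwtr1. Svbp, Vash2, Pcsk1 and other single genes were named after their values were seen, as were genes of a list at 0 reads. Alternatives were DESeq2 1.42.0, RLE factors, TMM factors from abundant genes (mean 10 CPM or more), no filter, keeping genes over 1 CPM in 4 or more libraries, an adjusted p under 0.05, a fit of the groups compared alone, a block for the replicate number, each library left out, and a pseudocount of 0.25. The fits were also run on simulated counts with no replicate or background structure, and no result here rests on that run. Endothelial, pericyte, smooth muscle, fibroblast, astrocyte, oligodendrocyte, neuron, monocyte and neutrophil, and pituitary and hypothalamic markers were summed by group. A further marker list is not reported here.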

Additional observations from a re-analysis of the deposited data

Results flagged for a closer look

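Of 32 sets of 4 libraries, 1 for each gene and group, 2 held a library that stood apart from the other 3, and chance alone gives about 1 in 20 such sets. Ndnf in YT-iKO MCAo was lowest in replicate 2, at 59.8 CPM where the other 3 held 86.2 to 91.2 CPM, and the gap to its neighbour was 0.839 of the range of the group. Pomc in CTRL sham was highest in replicate 3, at 8.01 CPM where the other 3 held 5.94 to 6.04 CPM, with a gap of 0.949 of the range. Pomc rested on 93 to 105 reads per library there. The receptor density was 0.412 CPM per kilobase in the first of these libraries and 0.175 in the second, and its part in either value was not tested.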

How the results depend on the processing

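The call of Apod after MCAo averaged over genotypes kept its direction and its adjusted p under 0.1 in every alternative run. For single genes after MCAo, 514 values under an alternative (DESeq2 or another setting of edgeR) kept their direction and their side of the threshold, 20 newly passed it, 2 no longer did (Podn in CTRL, without CTRL sham replicate 1 or 3) and 8 changed sign. Genotype differences chose the genes and were not counted here, and the counts of members called between genotypes below are a description of the settings, not a test. The 8 changes of sign were in values near 0: Pomc after MCAo averaged over genotypes was -0.00338 without a filter and ran from -0.065 to 0.0865 with 1 library left out, being below 0 without YT-iKO sham replicate 1 or 2, CTRL sham replicate 1 or 4, or MCAo replicate 1 of CTRL or 4 of YT-iKO, and Podn after MCAo in YT-iKO ran from -0.52 to 0.0543, above 0 without YT-iKO MCAo replicate 4. The genes called lower in YT-iKO after MCAo, 3 of 8 as reported, were 8 by DESeq2, 5 with RLE factors, 6 with TMM factors from abundant genes, 5 without a filter, 5 with the CPM filter and 1 to 6 with 1 library left out. Those called after MCAo averaged over genotypes, 1 of 8 as reported, were 3 by DESeq2, 2 with RLE factors, 5 with factors from abundant genes, 3 with the CPM filter and 1 to 2 with 1 library left out. Counts with 1 library left out ran from 1 to 4 between genotypes after sham (the lowest 2 counts were 2, when CTRL sham replicate 2 was left out, and 1, when YT-iKO sham replicate 4 was), from 1 to 2 for MCAo in CTRL, and from 5 to 11 for the relatives after MCAo. Factors from abundant genes moved the median log2 fold change of all genes from 0.11 to 0.30 between genotypes after sham, from 0.07 to 0.21 for MCAo in CTRL and from -0.02 to -0.16 for the difference of the responses. With them 4 members were called after MCAo in YT-iKO, and averaged over genotypes Vash1 (0.47), Serpinb6b (0.58), Itih5 (-0.30) and Ctsh (-0.36) were called beside Apod. Relatives called between genotypes after sham, 0 as reported, were 2 by DESeq2, 4 with factors from abundant genes and 5 in a fit of the groups compared alone, and after MCAo they were 1 by DESeq2 and 2 with factors from abundant genes. After MCAo averaged over genotypes, DESeq2 called Serpinb6b at an adjusted p of 0.0171 and Podn at 0.0133. Over all alternatives their adjusted p ran from 0.000148 to 0.450 and from 0.00585 to 0.275. For Podn in that average, the exact permutation p was 0.0563 with a pseudocount of 0.25 and 0.0237 with the even background taken off. The latter alternative was added after the data were seen. The causes of these changes were not tested. Leaving out a library was not run for the permutation test.

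Deviations from the group means were compared between libraries with the same replicate number over the 1000 most variable genes: 17 of 24 such pairs had a correlation over 0.1, with a median of 0.259, while 27 of 72 pairs with different numbers did, with a median of -0.128. Libraries with the same number thus tended to deviate together, and 9 of 16 libraries correlated best with their own number. As the labels give no shared origin for a number, the block was kept as an alternative. The main fit and the permutation tests thus take no account of this shared deviation. With a replicate block, 5 members were called between genotypes after MCAo and 2 after MCAo averaged over genotypes, where Serpinb6b had an edgeR adjusted p of 0.0987.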

Other observations

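Markers of some other cell types that the sort could hold were summed beside those of endothelium. Astrocyte markers summed to 64.0 to 116 CPM over the libraries, with Gja1 the highest at 38.2 to 62.7 CPM by group, and 1 of 7 rose after MCAo averaged over genotypes, Gfap by 0.80 on the log2 scale (edgeR adjusted p = 0.0368). Smooth muscle markers had 1 of 7 that rose, Des by 0.87 (edgeR adjusted p = 0.0864). Oligodendrocyte markers summed to 22.1 to 43.7 CPM with Cnp highest and neuronal markers to 13.5 to 52.7 CPM with Map2 highest, and neither of these lists had a called gene in any comparison by edgeR. Markers of monocytes and neutrophils summed to 12.6 to 27.5 CPM in sham libraries and 34.8 to 118 CPM in MCAo libraries, which was the change of Lcn2: the means of the other 6 markers summed to 7.28 CPM after sham and 8.94 after MCAo in CTRL, and to 10.3 and 9.89 CPM in YT-iKO.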
